A study of Mus musculus with 4 samples.

Results

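RNA-seq of 3T3-L1 cells was examined for 7 genes that take fatty acids from outside the adipocyte to acyl-CoA. Cd36 and Slc27a1 act at the plasma membrane, Lpl and Vldlr act on circulating lipoproteins, Fabp4 (also called aP2) and Fabp5 bind fatty acids in the cytosol, and Acsl1 activates them. The genes were chosen by symbol for these roles, with earlier results of these data known, and all 7 were found among the 13085 genes with FPKM values (fragments counted per kilobase and adjusted for library size, so that levels can be compared between genes).

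Adipocytes obtain much of their fat from triglyceride that travels in lipoproteins. The secreted lipase LPL releases fatty acids from these particles, the VLDL receptor binds the particles at the cell surface, and CD36 and FATP1, the product of Slc27a1, help fatty acids to enter the cell. FABP4 and FABP5 carry them through the cytosol, and long-chain acyl-CoA synthetases such as ACSL1 couple them to coenzyme A, which keeps them in the cell and commits them to triglyceride assembly or oxidation. Several of these genes are textbook targets of PPARγ, the nuclear receptor that drives fat cell differentiation.

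The study asked how CACUL1, a CDK2-associated cullin domain protein, affects PPARγ and adipogenesis. Of 4 stable lines of 3T3-L1, a murine preadipocyte line, FLAG-CACUL1 is labelled as expressing CACUL1 from a FLAG vector and FLAG carried the empty vector. The line sh-CACUL1 expressed a short hairpin RNA against CACUL1, and sh-Luc expressed a hairpin against luciferase. Confluent cells of each line received rosiglitazone (5 µM), IBMX (0.5 mM), dexamethasone (1 µg/mL) and insulin (5 µg/mL) in medium with 10% serum, then insulin every 2 days, and RNA was collected on differentiation day 8. FLAG vectors were selected with G418 and hairpin vectors with hygromycin B, so vector, drug and colony history differ between both pairs of lines and cannot be told apart from one another. The study's methods do not say whether a line was a single clone or a pool of colonies. Each line had 1 sample, so no difference was tested and no value has a replicate error. A gene counts as changed here when FPKM + 1 differed at least 2-fold, which is 1 on the log2 scale.

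Depth is not given in the files, but the spacing of low FPKM values corresponds to between 14300000 and 24000000 fragments per sample, with sh-Luc the deepest. The level of Cacul1 itself was 9.61 FPKM in FLAG, 11.8 FPKM in FLAG-CACUL1, 10.2 FPKM in sh-Luc and 5.39 FPKM in sh-CACUL1. Relative to its own control, neither CACUL1 line differed by 2-fold in Cacul1. The log2 fold change was 0.27 in FLAG-CACUL1, while sh-CACUL1 had -0.82. These values come from mouse RefSeq transcripts, and whether they capture RNA of the introduced construct was not tested. They therefore cannot show how far CACUL1 was overexpressed. At the protein level the study checked its stable lines by western blot, with antibodies against FLAG or CACUL1. The labels call the cells preadipocytes, and all 4 lines expressed adipocyte and preadipocyte markers. Relative to FLAG, 9 of 9 measured adipocyte markers were lower by 2-fold or more in FLAG-CACUL1, and relative to sh-Luc, 8 of them were at least 2-fold higher in sh-CACUL1. Their summed level was 2526 FPKM in FLAG, 106.6 FPKM in FLAG-CACUL1, 441.9 FPKM in sh-Luc and 4592 FPKM in sh-CACUL1. Of 8 measured preadipocyte markers, 4 were at least 2-fold higher and 1 was lower in FLAG-CACUL1, and 2 were higher and 5 lower in sh-CACUL1, with summed levels of 7222, 8387, 4569 and 1054 FPKM in the same order of lines. The 2 higher in sh-CACUL1 were Thy1 and Dlk1, both below 1 FPKM in sh-Luc. The surface marker Thy1 was at 0.66 FPKM in sh-Luc and between 34.3 and 144.2 FPKM in the other lines. For Dlk1 these levels were 0.22 FPKM and between 21.2 and 97.2 FPKM. Of all genes, 7.51% were at least 2-fold higher and 7.22% lower in FLAG-CACUL1, and 4.94% and 16.4% in sh-CACUL1. Of 5 measured macrophage markers, Csf1r and Mrc1 were at most at 0.61 FPKM, and the list summed to 40.2 FPKM in FLAG, 110.5 FPKM in FLAG-CACUL1, 9.14 FPKM in sh-Luc and 6.42 FPKM in sh-CACUL1. Its members moved in different directions in FLAG-CACUL1, where Lyz2 had 66.5 FPKM against 8.12 FPKM in FLAG, Cd14 had 42.2 against 15.04 FPKM, and Cd68 had 1.44 against 16.2 FPKM. The 2 measured endothelial markers, Pecam1 and Vwf, were each below 1 FPKM in the 4 lines. The part of these marker differences in the results below was not tested. In such bulk samples fewer adipocytes in the culture and less RNA per adipocyte cannot be told apart.

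Relative to FLAG, all 7 genes were lower by 2-fold or more in FLAG-CACUL1 and 0 were higher, while 7.22% of all genes were lower and 7.51% higher by that margin. Relative to sh-Luc, 6 of the 7 were higher by 2-fold or more in sh-CACUL1 and 0 were lower, while 4.94% of all genes were higher and 16.4% lower. The remaining gene, Vldlr, was lower by less than 2-fold. For FLAG-CACUL1 the log2 fold changes of the 7 genes had a median of -1.69, with a range from -3.96 for Fabp4 to -1.16 for Lpl. Over all genes the median was 0.09. For sh-CACUL1 the median of the 7 genes was 2.43, with a range from -0.92 for Vldlr to 4.13 for Acsl1, beside a median of -0.30 over all genes. The 9 adipocyte markers had medians of -4.16 and 2.64 in the respective comparisons. The balance of all genes depended on scaling between samples. In sh-CACUL1 647 genes were higher and 2141 lower as deposited, 1178 and 1084 after quantile normalization, 1186 and 1016 after median-of-ratios scaling, and 833 and 1675 with equal sums of FPKM. In FLAG-CACUL1 983 were higher and 945 lower as deposited, and 736 and 1187 after median-of-ratios scaling. The counts of 7 and 6 of the 7 genes were the same after quantile normalization and median-of-ratios scaling.

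**Figure D1:**
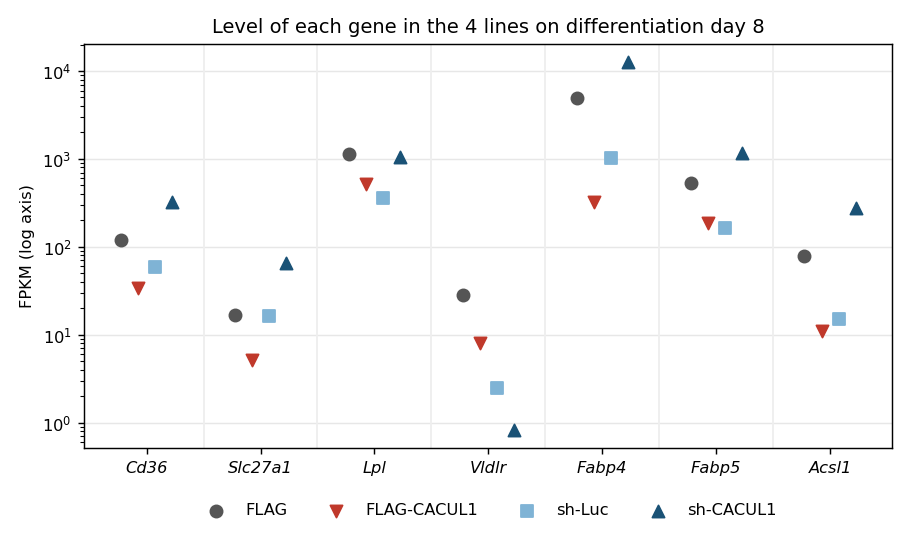
FPKM of the 7 genes (log axis) in the 4 lines, with 1 sample per line and no error bars. In the 6 genes other than Vldlr the highest levels are those of sh-CACUL1 and FLAG, though for Slc27a1 FLAG and sh-Luc are nearly level. Vldlr descends from 28.1 FPKM in FLAG to 0.82 FPKM in sh-CACUL1.

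Fabp4 was the most abundant of the 7 genes in each line except FLAG-CACUL1, where Lpl was. The 7 genes together made up 1.46% of the summed FPKM for FLAG, 0.228% for FLAG-CACUL1, 0.393% for sh-Luc and 4.15% for sh-CACUL1. Fabp4 supplied 72.2% of the group's FPKM for FLAG, 29.7% for FLAG-CACUL1, 62.4% for sh-Luc and 81.2% for sh-CACUL1. It was the most abundant gene of the sh-CACUL1 sample and ranked 3 in FLAG, 52 in sh-Luc and 227 in FLAG-CACUL1.

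The genes lie at separate loci except for Fabp4 and Fabp5. In GRCm38, Fabp4 (NM_024406) lies on the minus strand of chromosome 3 from 10204088 to 10208576 and Fabp5 (NM_010634) on the plus strand from 10012548 to 10016607, with 187480 bases between them. Cd36 (NM_007643) lies on chromosome 5 from 17781690 to 17888801 on the minus strand. The other genes are on plus strands. Acsl1 (NM_007981) covers chromosome 8 from 46471037 to 46536051, Lpl (NM_008509) from 68880491 to 68907448 and Slc27a1 (NM_011977) from 71568882 to 71587302. Vldlr (NM_013703) lies on chromosome 19 from 27216484 to 27254231. Reads of Fabp5 may be shared with copies elsewhere, since 33.1% of its stretches of 31 bases also occur in transcripts of other genes, 27.2% in those of Gm6166, so its level is less certain. In the other 6 genes that share was at most 3.16%.

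RefSeq promoter windows (GRCm38.p6) were at hand for 4 of the 7 genes, Cd36, Acsl1, Slc27a1 and Vldlr, with 8 windows in all. The 250 bases before a start site were searched on both strands for DR1, a direct repeat of the hexamer AGGTCA with 1 base between its copies, which PPARγ and RXR are known to bind, and the position with the fewest mismatches was kept. Cd36 and Acsl1 are shown as genes that moved together in both comparisons and Vldlr because it did not move with them in sh-CACUL1. Slc27a1 also moved with them but is not shown, and the closest matches in its windows had 5, 4 and 4 mismatches. Each sequence reads 5′ to 3′ on the gene's strand and ends at the base before the start site. Capitals mark the closest match to the repeat, or the first along the sequence where several were equally close.
Cd36, chr5:17835897-17836146, minus strand: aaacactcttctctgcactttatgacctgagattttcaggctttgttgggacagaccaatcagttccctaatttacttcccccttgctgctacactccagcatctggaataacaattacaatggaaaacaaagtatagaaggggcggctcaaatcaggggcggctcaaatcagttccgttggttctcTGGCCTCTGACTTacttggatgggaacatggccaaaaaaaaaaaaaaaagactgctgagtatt
Acsl1, chr8:46470787-46471036, plus strand: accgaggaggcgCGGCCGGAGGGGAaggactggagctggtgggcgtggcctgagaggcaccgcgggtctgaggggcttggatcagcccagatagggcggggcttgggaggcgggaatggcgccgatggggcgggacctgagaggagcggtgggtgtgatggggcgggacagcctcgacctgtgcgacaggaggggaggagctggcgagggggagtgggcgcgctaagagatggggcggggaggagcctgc
Vldlr, chr19:27216234-27216483, plus strand: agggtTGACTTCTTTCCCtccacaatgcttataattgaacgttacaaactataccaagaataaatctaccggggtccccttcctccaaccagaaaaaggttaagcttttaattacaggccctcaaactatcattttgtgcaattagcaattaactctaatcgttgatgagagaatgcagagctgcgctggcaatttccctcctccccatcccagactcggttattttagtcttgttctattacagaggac

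The Cd36 window held a match with 2 mismatches on the opposite strand, from 63 to 51 bases before the start site, and 3.24% of the 32851 windows of all genes hold a match that close. The Cd36 window lies within the gene, whose 5′ end is at 17888801, so it precedes an internal start site and not the first. Acsl1 and Vldlr each have a second window, and for these genes the window of the first start site is shown. The closest matches had 5 mismatches in this Acsl1 window and 4 in this Vldlr window, as close as in 99.6% and 74.5% of all windows. The single hexamer AGGTCA, which can form part of the repeat, occurred once on either strand in the Cd36 window and in neither of the others, against 14% of all windows. The hexamer GGGCGG, on either strand, occurred at 4 positions in the Acsl1 window, 2 in the Cd36 window and 0 in the Vldlr window, and 32.7% of all windows hold it. In the second windows the closest repeats had 5 mismatches for both genes, and GGGCGG occurred at 0 positions for Acsl1 and 1 for Vldlr. These windows are a small part of each regulatory region, and a match is no evidence of binding.

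Uptake genes were lowest in FLAG-CACUL1 and highest in sh-CACUL1. Cd36, which encodes the fatty acid translocase, had 120.5 FPKM in FLAG, 34.4 FPKM in FLAG-CACUL1, 59.5 FPKM in sh-Luc and 325.6 FPKM in sh-CACUL1. On the FPKM + 1 scale FLAG-CACUL1 was thus 3.43 times lower than FLAG (log2 fold change of -1.78) and sh-CACUL1 was 5.40 times higher than sh-Luc (2.43). Slc27a1 was less abundant, at 16.7 FPKM in FLAG, 5.16 FPKM in FLAG-CACUL1, 16.5 FPKM in sh-Luc and 66.0 FPKM in sh-CACUL1. Among the 7 genes it was the single gene whose levels in the FLAG and sh-Luc controls lay within 2-fold, with a log2 difference of 0.02. FLAG-CACUL1 lay below both controls and sh-CACUL1 above both for Slc27a1 (log2 fold changes of -1.52 and 1.94), and the same order held for Cd36.

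Lipoprotein lipase was abundant in each line. Lpl had 1143 FPKM in FLAG, 511.8 FPKM in FLAG-CACUL1, 356.8 FPKM in sh-Luc and 1060.3 FPKM in sh-CACUL1, and ranked between 42 and 173 among all genes. Its highest level was 3.20 times its lowest, the narrowest range of the group. On the log2 scale FLAG-CACUL1 differed from its control by -1.16 and sh-CACUL1 by 1.57. Since the FLAG level exceeded that of sh-Luc by 1.68 on the log2 scale, FLAG-CACUL1 lay above sh-Luc and sh-CACUL1 slightly below FLAG.

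Vldlr, which encodes the VLDL receptor, was ordered by pair of lines, which differ in vector, drug and colony history together. It had 28.1 FPKM in FLAG, 8.05 FPKM in FLAG-CACUL1, 2.46 FPKM in sh-Luc and 0.82 FPKM in sh-CACUL1, so both FLAG lines exceeded both hairpin lines. In FLAG-CACUL1 it was lower than in FLAG, with a log2 fold change of -1.69. In sh-CACUL1 it was lower than in sh-Luc by 0.92 on the log2(FPKM + 1) scale, short of 2-fold, and the direction was opposite to that of the other 6 genes. The added 1 weighs on such low levels. Without it the level in sh-CACUL1 was 2.99 times lower (log2 ratio of -1.58), and the values correspond to about 74 fragments in sh-CACUL1 and 350 in sh-Luc. Its levels in the FLAG and sh-Luc controls differed by 3.07 on the log2 scale, more than in either CACUL1 line against its own control.

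The cytosolic carriers and Lpl were the most abundant genes of the group in each line. Fabp4 had 4991 FPKM in FLAG, 320.4 FPKM in FLAG-CACUL1, 1020.1 FPKM in sh-Luc and 12543 FPKM in sh-CACUL1, which spans 39.2-fold. FLAG-CACUL1 was 15.5 times below FLAG, and sh-CACUL1 was 12.3 times above sh-Luc. Fabp5, the epidermal type of fatty acid binding protein, had 533.5, 188.2, 164.0 and 1180.5 FPKM in the same order of lines. Its log2 fold changes were -1.499 and 2.84, and its levels in FLAG-CACUL1 and sh-Luc were close. The ratio of Fabp4 to Fabp5 within a sample, which does not depend on scaling between samples, was 9.36 for FLAG, 1.70 for FLAG-CACUL1, 6.22 for sh-Luc and 10.6 for sh-CACUL1. FLAG-CACUL1 thus differed from the other lines, with Fabp5 supplying 37.0% of the pair's FPKM there and between 8.60% and 13.8% elsewhere.

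Acsl1, the principal long-chain acyl-CoA synthetase of adipocytes, showed the largest difference in sh-CACUL1. It had 77.6 FPKM in FLAG, 10.9 FPKM in FLAG-CACUL1, 14.95 FPKM in sh-Luc and 278.0 FPKM in sh-CACUL1. On the FPKM + 1 scale FLAG-CACUL1 was 6.59 times below FLAG (log2 fold change of -2.72) and sh-CACUL1 17.5 times above sh-Luc (4.13). Acsl1 held rank 213 in sh-CACUL1, 904 in FLAG, 4505 in sh-Luc and 5235 in FLAG-CACUL1, of 13085.

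**Figure D2:**
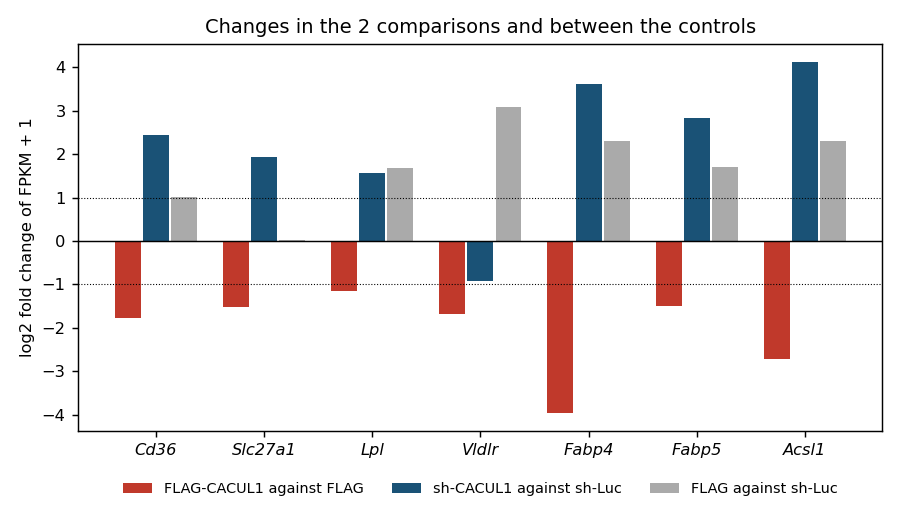
Log2 fold change of FPKM + 1 for the 7 genes in FLAG-CACUL1 against FLAG, sh-CACUL1 against sh-Luc and FLAG against sh-Luc, with dotted lines at 2-fold and 1 sample per line. Vldlr is the gene with negative bars in both CACUL1 comparisons, and its tallest bar, 3.07, is the difference between the controls.

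The composition of each family within a sample also differed between lines. Acsl1 supplied 49.8% of the FPKM of the Acsl genes measured (Acsl1, Acsl3, Acsl4 and Acsl5) for FLAG, 19.0% for FLAG-CACUL1, 27.8% for sh-Luc and 89.8% for sh-CACUL1. In FLAG-CACUL1 and in sh-Luc the most abundant member was Acsl5, at 43.2% and 32.3%. Among Slc27a1, Slc27a3 and Slc27a4, the share of Slc27a1 was lower in the FLAG lines than in the hairpin lines. It was 36.7% for FLAG, 30.3% for FLAG-CACUL1, 64.1% for sh-Luc and 79.5% for sh-CACUL1. Slc27a4, which encodes the related transporter FATP4, was the main form in both FLAG lines.

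**Figure D3:**
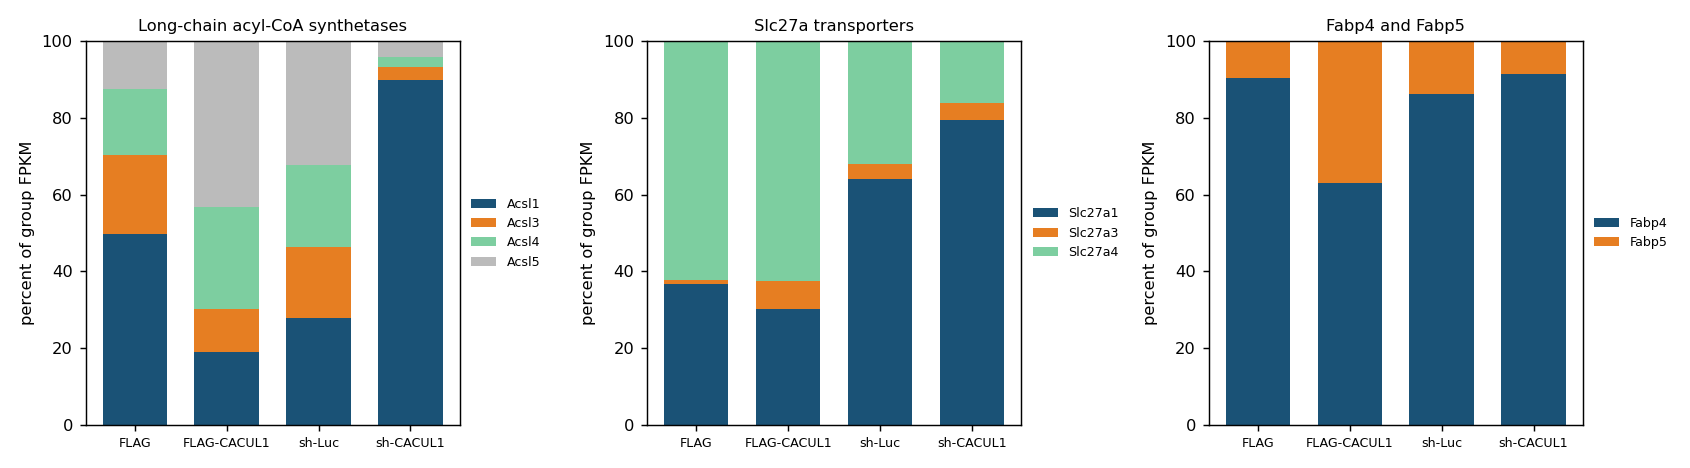
Percent of the FPKM of each group of related genes that each gene supplied in the 4 lines, with 1 sample per line. Acsl1 takes 89.8% of the Acsl genes in sh-CACUL1 and 19.0% in FLAG-CACUL1, and the Slc27a1 share separates FLAG from hairpin lines.

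The controls also differed from each other. In FLAG 6 of the 7 genes were higher by 2-fold or more than in sh-Luc and 0 were lower, with a median log2 difference of 1.70, while 8.58% of all genes were higher and 12.4% lower. Cd36 was at the margin, with a difference of 1.01 that became 0.96 after quantile normalization and 0.83 with equal sums of FPKM, which left 5 of the 7 genes past 2-fold under either setting. Over all genes 1123 were higher and 1627 lower as deposited, 1345 and 1143 after quantile normalization, 1574 and 931 after median-of-ratios scaling, and 906 and 2184 with equal sums of FPKM. Each CACUL1 line was also set against the other control, which shares samples with the comparisons above. FLAG-CACUL1 against sh-Luc left Fabp4 (log2 fold change of -1.67) and Slc27a1 (-1.504) at least 2-fold lower, where 4.87% of all genes were. Vldlr was higher by 1.39 there, where 5.04% of all genes were at least 2-fold higher. Cd36 (-0.77), Acsl1 (-0.42), Fabp5 (0.20) and Lpl (0.52) lay within 2-fold. In sh-CACUL1 against FLAG, 5 genes were at least 2-fold higher (7.45% of all genes), namely Slc27a1 (1.92), Acsl1 (1.83), Cd36 (1.43), Fabp4 (1.33) and Fabp5 (1.14). Lpl differed by -0.11 and Vldlr by -3.997, and 15.4% of all genes were at least 2-fold lower. Slc27a1 and Fabp4 were thus the genes that passed 2-fold in the same direction against either control in both CACUL1 lines.

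**Figure D4:**
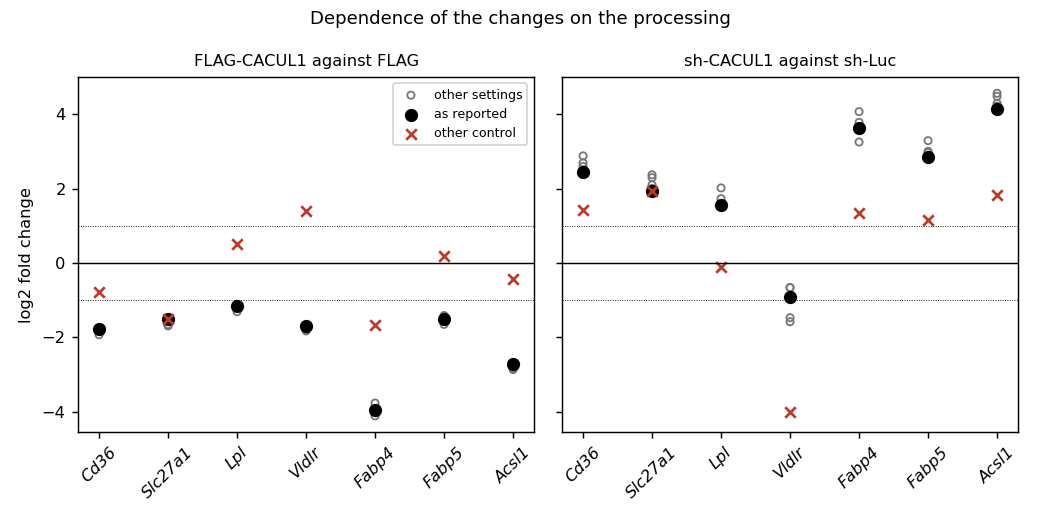
Log2 fold change of the 7 genes in both comparisons as reported (black), under other pseudocounts and scalings (open circles) and against the other control (crosses), with dotted lines at 2-fold. Pseudocounts and scalings leave each direction in place, whereas the other control moves Lpl to 0.52 and Vldlr to 1.39 in FLAG-CACUL1.

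Other genes of fatty acid uptake, binding and activation were examined through 6 lists. Of 50 genes measured, 10 were lower and 1 was higher by 2-fold or more in FLAG-CACUL1, beside 7.22% and 7.51% of all genes, and their median was -0.14 on the log2 scale. In sh-CACUL1 8 were higher and 7 lower, beside 4.94% and 16.4% of all genes, and their median was -0.19. Both 2-fold lower in FLAG-CACUL1 and 2-fold higher in sh-CACUL1 were 4 of the 50 genes, Scp2, Angptl4, Apoc1 and Acsf2. The share of all genes that met both conditions was not computed, so this count has no background beside it. In FLAG they exceeded sh-Luc by 1.88, 1.97, 4.09 and 1.63 on the log2 scale, in that order. Against sh-Luc, FLAG-CACUL1 differed by 0.23, -0.83, 1.93 and 0.04, and against FLAG, sh-CACUL1 differed by -0.68, -0.25, -0.51 and 0.07. None of the 4 thus kept these changes against the other control.

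Among 7 measured genes of membrane transport, Scarb1 and Slc27a4 were lower by 2-fold or more in FLAG-CACUL1. Scarb1, which encodes the HDL receptor SR-BI, a relative of CD36, had 125.0 FPKM in FLAG, 11.7 FPKM in FLAG-CACUL1, 18.8 FPKM in sh-Luc and 20.2 FPKM in sh-CACUL1. It was low in 3 lines, and its log2 fold change was -3.31 for FLAG-CACUL1 but 0.09 for sh-CACUL1. The other relative, Scarb2, a lysosomal membrane protein gene, was lower by 1.58 on the log2 scale in sh-CACUL1, and Slc27a3 was higher by 1.17 at 3.61 FPKM. Got2, whose mitochondrial aminotransferase is also described as a membrane fatty acid binding protein, stayed between 86.5 and 115.4 FPKM.

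Of 6 measured binding protein genes, Scp2, a sterol and fatty acyl carrier gene, was lower by 2-fold or more in FLAG-CACUL1 (-1.65). In sh-CACUL1 Scp2 (1.20) and Dbi (1.92) were higher and Acbd3, a Golgi protein gene, was lower (-1.05). Dbi, which encodes the acyl-CoA binding protein that receives the product of ACSL1, had 239.7 FPKM in FLAG, 222.8 FPKM in FLAG-CACUL1, 354.0 FPKM in sh-Luc and 1344.7 FPKM in sh-CACUL1. It ranked 23 among all genes in sh-CACUL1 and between 174 and 298 in the other lines, and differed little between FLAG and FLAG-CACUL1.

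Lpl has partners that assemble, inhibit or anchor the enzyme. Of 11 measured genes of this list, 2 were lower by 2-fold or more in FLAG-CACUL1, and 3 were higher and 1 lower in sh-CACUL1. Angptl4, whose product inactivates LPL, had 379.1 FPKM in FLAG, 53.5 FPKM in FLAG-CACUL1, 96.0 FPKM in sh-Luc and 317.7 FPKM in sh-CACUL1, with log2 fold changes of -2.80 and 1.72. The ratio of Lpl to Angptl4 was 9.57 in FLAG-CACUL1 and between 3.01 and 3.72 in the other lines. Apoc1, a lipoprotein component that restrains LPL, changed by -2.16 and 3.59. Apoc2, whose product activates LPL, was higher in sh-CACUL1 (1.10), at 1.59 FPKM against 0.21 FPKM in sh-Luc. Furin, a protease that cleaves LPL, was lower in sh-CACUL1 (-1.09). Lmf1 and Sel1l, which serve the folding and export of LPL, lay within 2-fold in both comparisons, as did Lmf2.

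Of 10 measured lipoprotein receptor genes, Sort1, which encodes the sorting receptor sortilin, was lower by 2-fold or more in FLAG-CACUL1 (-1.09), and Lrp1 was higher. Lrp1, which encodes a large endocytic receptor of remnant lipoproteins, had 143.2 FPKM in FLAG, 328.1 FPKM in FLAG-CACUL1, 145.4 FPKM in sh-Luc and 23.7 FPKM in sh-CACUL1. Its controls were level and its log2 fold changes of 1.19 and -2.57 were opposite to those of Cd36 and Fabp4. Lrp4 (-1.71) and Lrp5 (-1.52) were also lower in sh-CACUL1, and no receptor gene of the list was at least 2-fold higher there.

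Of 8 measured acyl-CoA synthetase genes besides Acsl1, 3 were lower by 2-fold or more in FLAG-CACUL1, Acsl3 (-2.17), Acsf2 (-1.59) and Acsbg1 (-1.40). In sh-CACUL1 Acsf2 was higher by 1.70 and Acsm5 by 1.41, the latter at 2.03 FPKM. Acsl3, an isoform of the endoplasmic reticulum and lipid droplets, had 10.02 FPKM in sh-Luc and 10.97 FPKM in sh-CACUL1, where Acsl1 differed 17.5-fold. Acsl4 and Acsl5 lay within 2-fold in both comparisons. Of 8 measured thioesterase genes, which release fatty acids from acyl-CoA again, Acot8 was lower in FLAG-CACUL1 (-1.01) and Acot1 in sh-CACUL1 (-1.59). Acot1 shares 28.9% of its stretches of 31 bases with Acot2, so its level is uncertain.

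**Figure D5:**
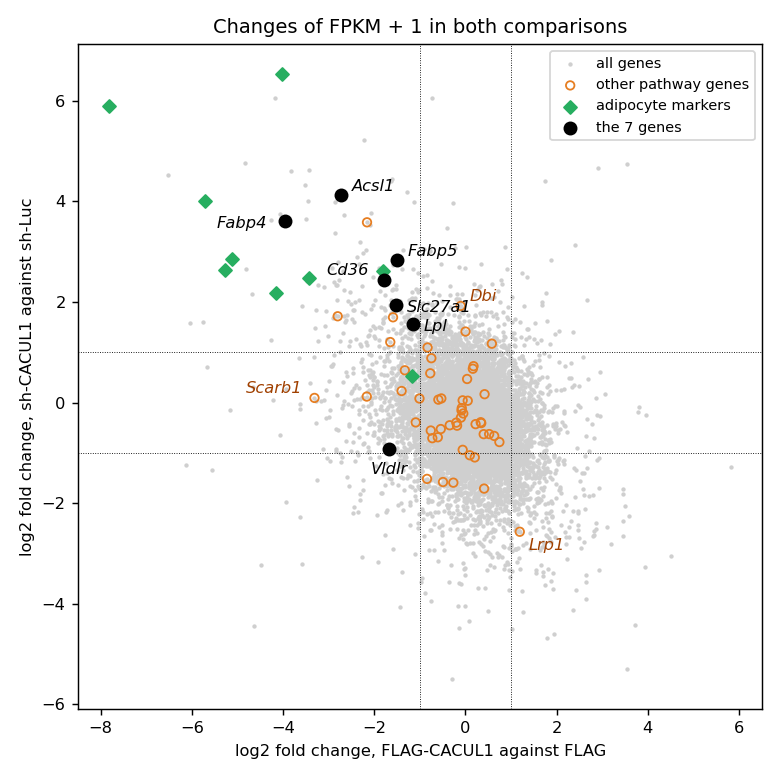
Log2 fold change of FPKM + 1 in FLAG-CACUL1 against FLAG (x axis) and in sh-CACUL1 against sh-Luc (y axis) for all 13085 genes (grey), the 50 other pathway genes (open circles), 9 adipocyte markers (diamonds) and the 7 genes (black). Of the 7 genes, 6 lie in the upper left field, as do 8 of the 9 adipocyte markers, and Vldlr lies below it at -0.92. The share of all genes in that field was not computed.

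The list of nuclear receptors and C/EBP factors that respond to fatty acids or drive adipogenesis had 10 measured genes. In FLAG-CACUL1 3 were lower by 2-fold or more and 1 was higher, beside 7.22% and 7.51% of all genes. Lower were Pparg (-2.42), Cebpa (-1.98) and Nr1h3 (-1.62), and Cebpd was higher (1.02). In sh-CACUL1 5 were higher and 0 lower, beside 4.94% and 16.4% of all genes. The higher genes were Nr1h3 (4.41), Pparg (2.00), Cebpa (1.48), Rxra (1.17) and Rxrg (1.07). Levels were low for Cebpa, at 0.42 FPKM in sh-Luc and 2.97 FPKM in sh-CACUL1, and for Rxrg, at 0.08 and 1.27 FPKM. In the study's RT-qPCR of adipogenic genes, C/EBPα was the exception to lower levels with CACUL1 overexpression and higher levels with depletion. Of the genes examined here, the study also measured aP2 (Fabp4) and LPL by RT-qPCR in differentiated stable lines. It reported both as reduced with CACUL1 overexpression, an effect it describes as abolished in knockdown cells. Nr1h3, which encodes the oxysterol receptor LXRα, had 14.5 FPKM in FLAG, 4.04 FPKM in FLAG-CACUL1, 1.03 FPKM in sh-Luc and 42.2 FPKM in sh-CACUL1. The controls differed here too, and in FLAG Pparg, Cebpa and Nr1h3 exceeded sh-Luc by 2.17, 2.84 and 2.93 on the log2 scale. Against sh-Luc, FLAG-CACUL1 differed by -0.25, 0.86 and 1.31 in that order. Against FLAG, sh-CACUL1 differed by -0.18, -1.36 and 1.48.

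The genes most like each of the 7 were sought by the Euclidean distance between log2(FPKM + 1) values, centred on each gene's mean over the 4 lines, among 11412 genes with at least 1 FPKM in any line. With 4 samples such likeness is a description. Cd36 was closest to Cers4, a ceramide synthase gene (distance of 0.06), and Slc27a1 to Aldh6a1, a gene of valine breakdown (0.22). Lpl was closest to Radil (0.14) and then to Hsd3b7 (0.17) and Ivd, a gene of leucine breakdown (0.19). The neighbours of Fabp4 were farther away, with Adig, an adipocyte gene, at 0.62, the hormone-sensitive lipase gene Lipe at 0.89 and S100a1 at 0.92. Acsl1 was closest to Noct (0.57), then to Ffar2, a receptor gene for short-chain fatty acids (0.65), and Lgals12 (0.72). Fabp5 was closest to Cbr3 (0.29). Vldlr was closest to Psmb9, an immunoproteasome gene (0.17), Mcub (0.22) and Porcn (0.29), which like it were highest in FLAG and lowest in sh-CACUL1. Within the group the nearest pair was Cd36 and Fabp5 (0.72), and Vldlr was between 2.98 and 5.52 away from the other genes.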

How the data were processed

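The authors deposited FPKM values for 13110 rows of RefSeq transcripts in each of 4 samples, 1 per line. A company made the libraries, sequenced them and picked out differentially expressed genes, and the study's methods do not say who computed FPKM. The submitters' processing notes name the genome build mm10, while the aligner, the counting program, the normalization between samples and any filter are not given in the sources used here. FPKM depends on all mapped fragments, so a few very abundant genes lower the values of others in a sample.

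GENCODE M21 (GRCm38) gave each RefSeq identifier its symbol, and rows of a symbol were summed to 13085 genes. No symbol was found for 196 rows, and 8 had several. Changes are log2 ratios of FPKM + 1, which understate those of low genes. With 1 sample per line no test was made, and a gene was called at 2-fold, the study's cut-off. The value of 1 fragment was estimated from low FPKM times transcript length, using single-transcript rows whose length was 3000 bases or more. The fragment numbers given are therefore approximate, and no interval was built on them.

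The 7 genes and all lists were chosen with earlier results of these data known. Named are the 7 genes, list genes with at least 1 FPKM in any sample or used as markers, the 3 nearest genes of each and Cacul1. Some genes of the lipoprotein receptor list are not reported here. There were 10 alternatives. Scripts were tested on simulated data. Protein sequences and the promoters of Fabp4, Fabp5 and Lpl were not used here. Python 3.11.15, numpy 2.4.6, pandas 2.3.3 and matplotlib 3.10.9 were used.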

Additional observations from a re-analysis of the deposited data

How the results depend on the processing

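No paired analysis was possible because each line has a single sample. Pseudocount, filters, scalings and the choice of row left the direction of each of the 7 genes in place in both CACUL1 comparisons. Vldlr dropped out under at least 1 FPKM in all samples. The other control reversed Lpl (0.52), Vldlr (1.39) and Fabp5 (0.20) in FLAG-CACUL1 and Lpl in sh-CACUL1 (-0.11, each a log2 fold change). It left 2 of the 7 genes lower and 1 higher in FLAG-CACUL1, 1 lower in sh-CACUL1 (Vldlr), and 975 of all genes higher there. A pseudocount of 0.1 FPKM or none put 1 gene, Vldlr, past 2-fold downward in sh-CACUL1. At 3-fold 4 of the 7 genes were lower in FLAG-CACUL1.

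Counts over all genes moved more. In FLAG-CACUL1 against FLAG, 1786 genes were higher with a pseudocount of 0.1, 1583 were lower and 2192 higher without one, and 380 were lower and 283 higher at 3-fold. In sh-CACUL1 against sh-Luc, 1085 were higher with 0.1, 3437 were lower and 1362 higher without a pseudocount, 1084 and 1178 after quantile normalization, 1016 and 1186 after median-of-ratios scaling, and 684 and 252 at 3-fold. In FLAG against sh-Luc, 2568 were lower with 0.1, 2949 were lower and 1762 higher without a pseudocount, 931 were lower after median-of-ratios scaling, and 457 were lower and 537 higher at 3-fold. The cause of these shifts was not tested. With 1 sample per line no difference can be set against the spread between cultures.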
